A study of Arabidopsis thaliana with 8 samples.

Results

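GH3.3, WES1 and UGT84B1 encode enzymes that attach the plant hormone auxin to other molecules, and their transcripts were followed here in Arabidopsis thaliana protoplasts, plant cells freed of their walls. The genes were chosen by name, with earlier results of these data known. Their probe sets are those that the platform annotation gives to 1 of these genes alone. Each of the 3 genes had 1 such probe set (GH3.3 245076_at, locus AT2G23170; WES1 253908_at, AT4G27260; UGT84B1 245068_at, AT2G23260), among 13513 probe sets that name 1 gene and 22746 probe sets in all outside the array controls. The constructs in these cells, SND1XVE and VND7XVE, let estradiol turn on SND1 or VND7, NAC transcription factors that in fibres (SND1) and vessels (VND7) start the building of secondary walls. Within each line, control cells had been given cycloheximide and the other cells cycloheximide together with estradiol, and each of the 4 groups had 2 Affymetrix arrays, 8 in all. Cycloheximide, which blocks protein synthesis, was therefore present in every group; it is used in such designs to keep responses to those that need no newly made protein. The promoter that drives the 2 constructs, the tissue the protoplasts came from and any cells without a construct are not described in the labels.

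Free indole-3-acetic acid (IAA), the main natural auxin, is kept low in plant cells partly by conjugation. Some GH3 enzymes link it to amino acids, which marks it for storage or breakdown, and some UDP-glycosyltransferases join it to glucose. Several GH3 genes are themselves raised quickly by auxin, which closes a feedback loop, and auxin is known as a signal in the formation of xylem. GH3.3 encodes an IAA-amido synthetase. WES1, also known as GH3.5, encodes an enzyme that acts on both IAA and salicylate. UGT84B1 encodes a glucosyltransferase that makes the glucose ester of IAA.

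GH3.3 signal was lower with estradiol in both lines, and it was lower in VND7XVE than in SND1XVE cells. UGT84B1 signal differed between the lines, being low on all VND7XVE arrays and higher on every SND1XVE array. Its change with estradiol passed the test in neither line. WES1 passed the test in none of the 5 comparisons. Its VND7XVE estradiol arrays lay below the VND7XVE and SND1XVE controls. With 2 arrays in a group, however, groups can fail to overlap without any change in the gene. The share of all probe sets whose groups did not overlap was not counted, so no result is read from a lack of overlap here. All 3 genes passed the filter on low signal, which asked that at least 2 arrays show a signal over their own 40th percentile. GH3.3 and WES1 were above it on all 8 arrays, whereas UGT84B1 was above it on all 4 SND1XVE arrays and on 0 of the 4 VND7XVE arrays. UGT84B1 thus entered the tests through the line where it is higher, and a difference between the lines is partly fixed by that entry.

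**Figure D1:**
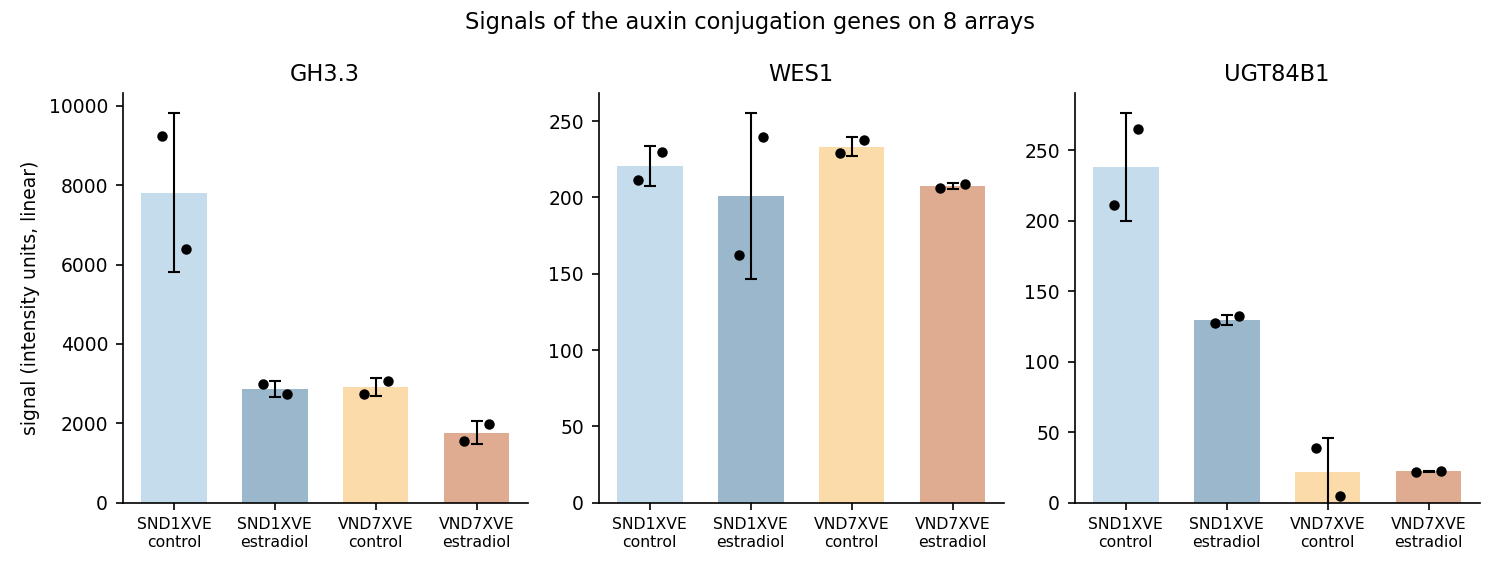
Signals in linear intensity units of GH3.3, WES1 and UGT84B1 (panels with their own axes) in the 4 groups; points are single arrays, bars the mean of 2 arrays and whiskers the SD, cut at 0 for UGT84B1 in VND7XVE controls. GH3.3 falls in both lines, the WES1 group means lie between 201 and 233, and UGT84B1 is higher on every SND1XVE array than on any VND7XVE array.

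Signals of GH3.3 in SND1XVE cells were 9228.4 and 6391.9 intensity units in the controls and 2999.7 and 2728.9 with estradiol. The 2 groups did not overlap, and the controls were the more variable, with 7810.1 ± 2005.7 (SD, n = 2) against 2864.3 ± 191 (SD, n = 2). On the log2 scale of the signal with 16 added, which is used for all differences and folds here, the fall of GH3.3 came to -1.42 ± 0.15 (SE), or 2.68-fold (limma across all 14768 tested probe sets, adjusted p = 3.65e-06). In this comparison 16.4% of the tested probe sets were called in either direction at an adjusted p under 0.05, and 7.06% were called lower. Of the 1043 probe sets called lower, 21 fell by more than GH3.3. Without control replicate 1, the array with the highest GH3.3 signal, the estimate was -1.16 with an adjusted p of 9.44e-05.

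In VND7XVE cells the GH3.3 signals were 2747.0 and 3069.8 in the controls and 1556.6 and 1973.4 with estradiol. These groups did not overlap either. The change of GH3.3 was -0.72 ± 0.15 (SE), a 1.65-fold fall (limma, adjusted p = 0.00266), in a comparison where 14.5% of the probe sets were called and 6.37% were called lower. Of the 940 probe sets called lower, 146 fell by more. The call was lost without VND7XVE estradiol replicate 1, the array with the lowest signal (-0.55, adjusted p = 0.0674), and without the intensity trend in limma (adjusted p = 0.0815).

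The fall of GH3.3 was larger in SND1XVE than in VND7XVE by 0.70 ± 0.21 on the log2 scale, but this difference between the lines did not pass the threshold (limma, adjusted p = 0.1, 95% interval 0.25 to 1.14 before adjustment). Only 3.06% of the probe sets were called for this difference. Without SND1XVE control replicate 2 it was 0.96 (adjusted p = 0.0116), and without SND1XVE control replicate 1 it was 0.43 (adjusted p = 0.293), so the call turned on which of these 2 controls was kept.

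The level of GH3.3 also differed between the lines without estradiol. VND7XVE controls stood at 2908.4 ± 228 (SD, n = 2), with a difference from the SND1XVE controls of -1.40 ± 0.15 in log2 units, a 2.64-fold difference (limma, adjusted p = 4.09e-06). With estradiol the VND7XVE arrays, at 1765.0 ± 295 (SD, n = 2), differed from the SND1XVE arrays by -0.70 ± 0.15, a 1.63-fold difference (adjusted p = 0.00192). The 4 groups thus ran from SND1XVE controls at the top to VND7XVE cells with estradiol at the bottom. The groups in between, SND1XVE with estradiol and VND7XVE controls, had overlapping signals. The lines differed at many other genes too: 27.5% of the probe sets were called between the controls and 30.6% between the estradiol arrays.

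UGT84B1 signals in SND1XVE cells were 211.3 and 265.3 in the controls and 127.4 and 132.2 with estradiol. In VND7XVE cells they were 38.8 and 5.1 in the controls and 22.1 and 22.3 with estradiol. All 4 SND1XVE signals lay above all 4 VND7XVE signals, and the 2 VND7XVE groups overlapped, with the estradiol arrays lying between the controls. The 40th percentile of the arrays was at 44.5 to 50.4 units, so every VND7XVE signal was in the lowest part of its array, where the spread on the log scale is wide.

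Between the controls the VND7XVE signal of UGT84B1 differed by -2.89 ± 0.37 in log2 units (SE; limma, adjusted p = 2.64e-05). No detection calls were used here, so UGT84B1 may not be above background in VND7XVE cells, and no fold is given. The size of the difference depended on the number added to the signal, with -3.93 for a pseudocount of 1 and -1.84 for 64. It was -3.58 without VND7XVE control replicate 1 and -2.21 without VND7XVE control replicate 2. In this comparison 13.8% of the probe sets were called lower. Between the estradiol arrays the difference was -1.93 ± 0.37 (adjusted p = 0.000883), with 16.5% of the probe sets called lower. Tested without the filter, both differences passed the threshold as well (adjusted p = 0.00124 and 0.0103).

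Within SND1XVE the UGT84B1 groups did not overlap, and the estimate was -0.79 ± 0.37 on the log2 scale with a 95% interval of -1.58 to -0.01, but it did not pass the threshold (limma, adjusted p = 0.175). The estimate of spread was shared with the VND7XVE arrays, among which the controls of this gene differed widely. With the 4 SND1XVE arrays alone the adjusted p was 0.0183, with a pseudocount of 64 it was 0.0326 (at -0.64), and without VND7XVE control replicate 2 it was 0.0458. Within VND7XVE the estimate was 0.17 with an interval of -0.62 to 0.96 (adjusted p = 0.843). It was 0.86 without VND7XVE control replicate 1 and -0.52 without VND7XVE control replicate 2, so no direction can be read from it. The difference between the estradiol effects, 0.96 ± 0.52, did not pass the threshold (adjusted p = 0.466).

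WES1 signals in SND1XVE cells were 211.1 and 229.5 without estradiol and 162.3 and 239.3 after it. In VND7XVE cells they were 228.9 and 237.6 without it and 205.9 and 208.9 after it. The SND1XVE groups overlapped, and in VND7XVE the estradiol arrays lay just below the controls. The estradiol estimate was -0.15 with a 95% interval of -0.54 to 0.24 in SND1XVE (limma, adjusted p = 0.674) and -0.16 with an interval of -0.55 to 0.23 in VND7XVE (adjusted p = 0.667). In SND1XVE it was 0.11 without estradiol replicate 1, the lowest array, and -0.41 without estradiol replicate 2. Between the lines WES1 differed by 0.08 in the controls and by 0.07 with estradiol (adjusted p = 0.8 and 0.825), and the difference between the estradiol effects was -0.01 with an interval of -0.56 to 0.54. These intervals leave room for changes of up to about this size in either direction, and they do not hold the falls estimated for GH3.3.

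**Figure D2:**
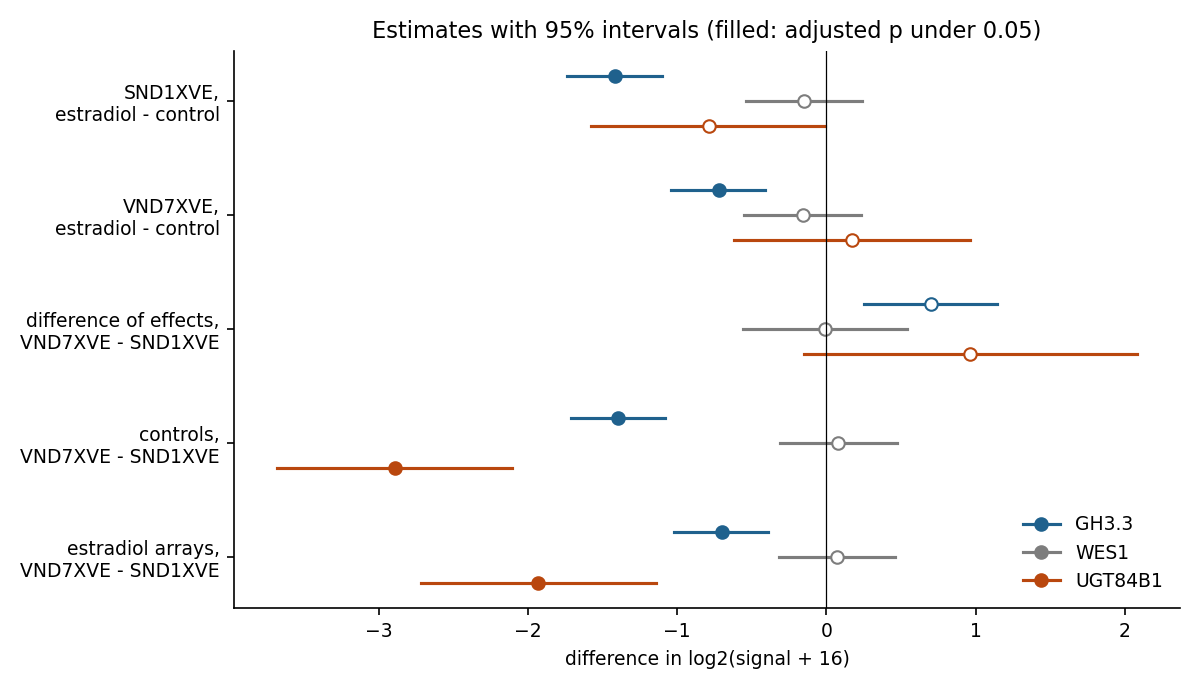
Differences in log2(signal + 16) with 95% intervals (lines) for GH3.3, WES1 and UGT84B1 in the 5 comparisons; filled points have an adjusted p under 0.05. GH3.3 is below 0 in both estradiol effects and between the lines, UGT84B1 is below 0 between the lines, at -2.89 and -1.93, and WES1 lies near 0 throughout.

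Other GH3 genes were set beside the members. The family has 19 genes in the list used, of which 11 had a probe set naming them alone and 5 were tested. In each line GH3.3 was the 1 tested gene of the family called lower and 0 were called higher. Of all probe sets 7.06% were called lower in SND1XVE and 6.37% in VND7XVE. With 5 genes tested, nothing about the family is read from this count. The median of the 5 tested genes was -0.16 in both lines, beside 0.015 and -0.032 over all probe sets. GH3.9 had estimates of -0.09 in SND1XVE and -0.51 in VND7XVE (adjusted p = 0.918 and 0.435). AT5G13350 (GH3.13) stood at -0.16 and 0.09, and AT5G13380 (GH3.16) at -0.22 and -0.11, all without a call.

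Between the estradiol arrays GH3.9 was lower in VND7XVE, by -1.03 (limma, adjusted p = 0.0452). That call was lost without the filter (adjusted p = 0.0811), after quantile normalization (0.0806), with the replicate block (0.051) and without any 1 of the 4 estradiol arrays (0.0978 to 0.212). The other 6 genes of the family, GH3.1, GH3.17, AT1G23160, AT5G51470, AT1G48670 and AT1G48660, missed the filter, with signals of 0.9 to 58.0 units over all arrays. GH3.17 encodes an enzyme that links IAA to glutamate. Probe sets for the other GH3 genes that auxin is known to raise, such as DFL1 and GH3.2, are not named in the table used here, and these genes were not analysed here.

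Among glucosyltransferase genes of the UGT84, UGT74 and UGT75 groups, 9 of 13 had a probe set naming them alone and 7 were tested. In SND1XVE 1 of the 7 was called lower and 0 higher, and in VND7XVE likewise 1 was called lower and 0 higher, with medians of -0.33 and -0.24. Of all probe sets 7.06% and 6.37% were called lower, and 16.4% and 14.5% in either direction, with medians of 0.015 and -0.032. With 7 genes tested, nothing about these groups of genes is read from the counts. The gene called lower in SND1XVE was IAGLU (UGT75D1), named for the transfer of glucose to IAA. Its signals were 4807.9 and 4212.7 in the controls and 3641.8 and 3510.2 with estradiol, and the groups did not overlap. IAGLU fell by 0.33 ± 0.11 on the log2 scale (limma, adjusted p = 0.043), a call lost with the replicate block (adjusted p = 0.0508), without the filter (0.1), without the limma trend (0.177), after quantile normalization (0.0778) and with the 4 SND1XVE arrays alone (0.0698). It was also lost without SND1XVE control replicate 1 (0.252), either SND1XVE estradiol array (0.104 and 0.153) or either VND7XVE estradiol array (0.0547 and 0.0545).

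In VND7XVE the IAGLU estimate was -0.24 (adjusted p = 0.154). Between the controls IAGLU was higher in VND7XVE, by 0.53 ± 0.11 (adjusted p = 0.00153), where 13.7% of all probe sets were called higher. Between the estradiol arrays it was higher by 0.61 ± 0.11 (adjusted p = 0.000363), where 14.1% were. Its direction between the lines was opposite to that of GH3.3 and UGT84B1. The gene called lower in VND7XVE was UGT84A3, whose enzyme makes glucose esters of hydroxycinnamates, precursors in phenylpropanoid metabolism. Its signals went from 481.3 and 535.3 to 331.7 and 326.0, without overlap, a fall of -0.60 ± 0.14 (limma, adjusted p = 0.00549) that was not called without VND7XVE control replicate 2 (adjusted p = 0.0747). In SND1XVE it stood at -0.40 (adjusted p = 0.0579), and passed after median centring (0.017) and quantile normalization (0.0194).

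No other gene of that list was called for estradiol. UGT74B1, of glucosinolate synthesis, stood at 0.25 and 0.03, and UGT74D1, which acts on auxins and oxidised IAA, at 0.08 and 0.17. UGT84A4 (0.54 and -1.08) and AT2G31790 (UGT74C1, -0.55 and -0.41) had low and variable signals. UGT84B2, the close relative of UGT84B1, missed the filter with signals between 2.4 and 35.9 units. UGT84A1 missed it too, at 2.0 to 6.8 units.

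The rest of the auxin pathway was thinly covered. The 133 listed loci are auxin genes, the whole GH3 family and the relatives of UGT84B1 such as UGT84A3 and UGT74B1. Of these loci, 33 had a probe set naming them alone and 16 were tested, the 3 members included. Receptors, ARF factors and transporters had 0 named probe sets, as had a further list of small auxin-up (SAUR) genes. In SND1XVE 2 of the 16 were called, both lower, which is 12.5%. Of all probe sets 7.06% were called lower there and 16.4% in either direction. In VND7XVE 3 of the 16 were called, all lower and 1 of them UGT84A3, which is 18.8%. Of all probe sets 6.37% were called lower there and 14.5% in either direction. With 16 genes tested, GH3.3 among them by choice, nothing about the pathway is read from these shares. The medians of the 16 were -0.13 and -0.16.

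The further call in VND7XVE was IAA18, one of the Aux/IAA repressors of auxin signalling. Its signals were 2454.5 and 2421.2 in the controls and 1853.4 and 1714.4 with estradiol. It fell by 0.45 ± 0.11 on the log2 scale (limma, adjusted p = 0.00963), a call lost without VND7XVE control replicate 1 (adjusted p = 0.0888), control replicate 2 (0.0656) or estradiol replicate 2 (0.0863), and without the limma trend (0.0862). In SND1XVE IAA18 stood at -0.12 (adjusted p = 0.532), and the difference between the effects was -0.33 (adjusted p = 0.375). IAA30, of the same family, stood at -0.05 and -0.10.

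AT1G14130 (DAO1), which oxidises IAA and so works beside conjugation in its removal, went from 689.0 and 760.0 units to 856.0 and 805.3 in SND1XVE. Its estimates were 0.19 in SND1XVE and -0.05 in VND7XVE (adjusted p = 0.345 and 0.857). YUC2, a flavin monooxygenase gene of auxin synthesis, stood at 0.37 and -0.17 (adjusted p = 0.607 and 0.855). Neither gene was called for estradiol. Each was the only tested gene of its list, 1 of 10 for auxin conjugate hydrolysis, oxidation and methylation and 1 of 23 for auxin synthesis. YUC2 was above the filter level on only 3 of the 8 arrays. Nothing about IAA oxidation or synthesis as a whole is read from these 2 genes.

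Because WES1 also acts on salicylate, genes of salicylate metabolism were followed. Of 15 listed, 3 were named and tested. UGT74F1, which glucosylates salicylate, went from 4.3 and 6.4 units to 107.3 and 112.4 in SND1XVE, and from 9.6 and 4.1 to 146.3 and 129.6 in VND7XVE. UGT74F1 was called higher in both lines (limma, 2.56 ± 0.37 and 2.76 ± 0.37 on the log2 scale, adjusted p = 0.000108 and 4.81e-05). Its control signals were all below the filter level and it entered the tests through the estradiol arrays, so the rise is partly fixed by that entry. Tested without the filter, both calls stood (adjusted p = 0.000723 and 0.00041), and the sizes, which depend on the pseudocount, are no measured folds.

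UGT76B1, a glucosyltransferase gene of salicylate and related immune signals, rose in SND1XVE by 0.93 ± 0.18, from 233.8 and 156.1 to 385.0 and 375.8 (adjusted p = 0.00159). In VND7XVE it stood at -0.27 (adjusted p = 0.399). BSMT1, which methylates salicylate and benzoate, stood at -0.17 and -0.05. In this list 2 of the 3 genes were called higher in SND1XVE and 1 of the 3 in VND7XVE, beside 9.37% and 8.15% of all probe sets. UGT74F1 is in both counts and entered the tests through the estradiol arrays. With 3 of 15 listed genes tested, nothing about salicylate metabolism is read from these counts.

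**Figure D3:**
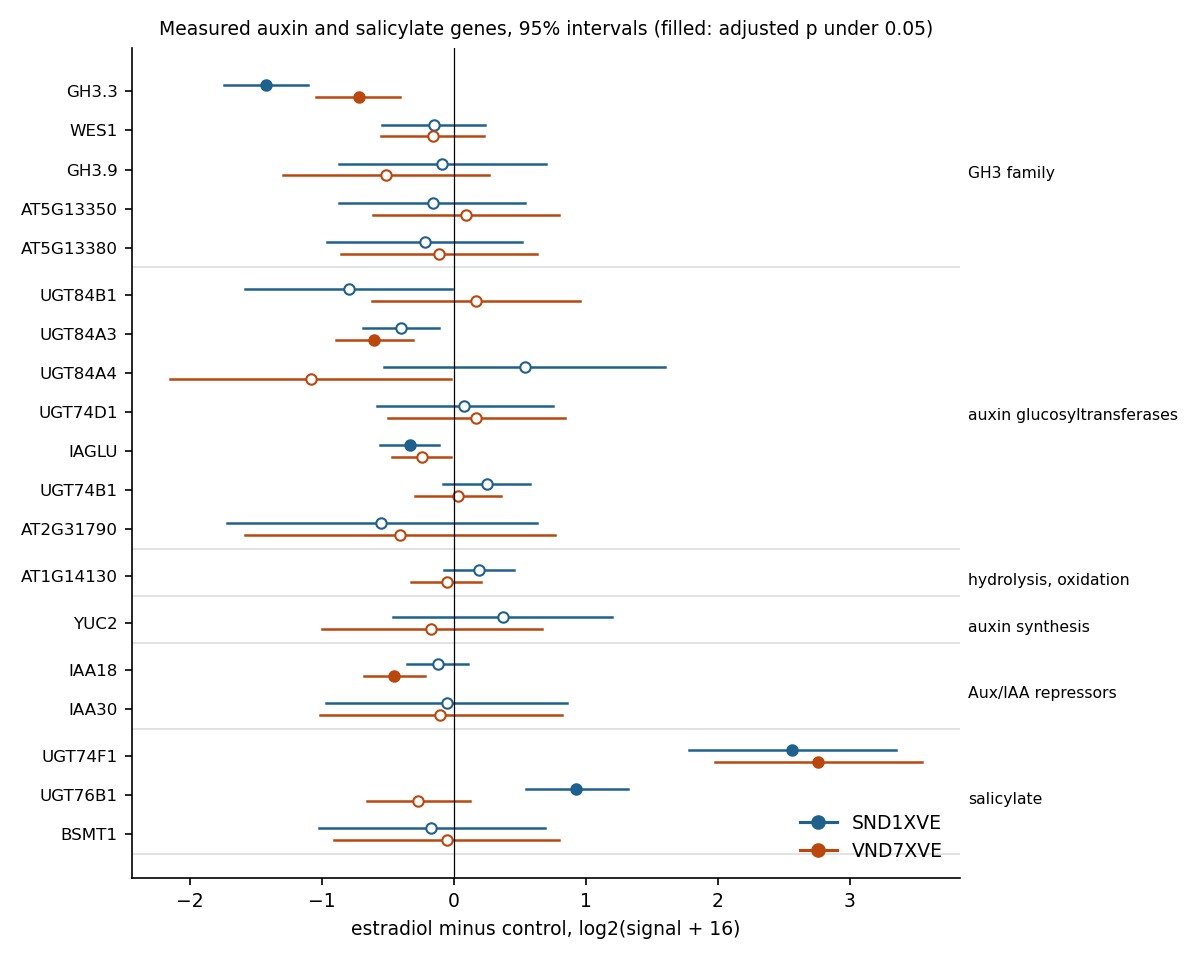
Estradiol effects with 95% intervals, in log2(signal + 16), of all tested genes of the auxin and salicylate lists in SND1XVE (blue) and VND7XVE (orange); filled points have an adjusted p under 0.05. GH3.3 stands lowest among the called auxin genes in both lines, at -1.42 and -0.72, and UGT74F1, whose controls are below the filter level, highest at 2.56 and 2.76.

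GH3.3 and UGT84B1 lie near each other on chromosome 2, with 8 genes between them in the RefSeq gene order of assembly TAIR10.1, whereas WES1 is on chromosome 4. Of these 8 genes, 4 had a probe set naming them alone and 1, AT2G23200, was tested. AT2G23200 read 147.7 and 152.9 in the SND1XVE controls, 65.8 and 144.2 after estradiol, 96.5 and 82.7 in the VND7XVE controls, and 76.2 and 53.2 after estradiol there. All VND7XVE signals were below those of the SND1XVE controls. With all arrays none of its comparisons was called, with -0.54 and -0.40 for estradiol (limma, adjusted p = 0.257 and 0.452) and -0.66 between the controls (adjusted p = 0.113). With single arrays left out, AT2G23200 was called for estradiol in SND1XVE without SND1XVE estradiol replicate 2 (-1.02, adjusted p = 0.0446), and between the estradiol arrays without SND1XVE estradiol replicate 1 (-1.0, adjusted p = 0.0266).

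The genes whose profiles over the 8 arrays were most like those of the members were found by the root mean square difference of log2 signals centred on each gene's mean, among 8099 other tested genes. For GH3.3 they were AT4G23030 (0.158), AT5G09800 (0.216), AT1G32690 (0.224) and AT2G27320 (0.236), where the median over all genes was 0.821. AT4G23030 read 1234.7 and 1022.3 in the SND1XVE controls, 481.2 and 462.6 after estradiol, 362.6 and 567.9 in the VND7XVE controls, and 234.6 and 272.7 after estradiol there, the same order of groups as for GH3.3 at its ends. All 4 genes had their highest signals in SND1XVE controls and their lowest with estradiol in VND7XVE.

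For UGT84B1 the most similar profiles were those of PDF1.2 (0.305), a defensin gene raised by jasmonate and ethylene, AT2G36690 (0.367), AT1G51915 (0.37) and AT5G19880 (0.375), beside a median of 1.30. PDF1.2 read 173.0 and 180.0 in the SND1XVE controls, 159.7 and 182.1 after estradiol, 30.8 and 9.3 in the VND7XVE controls, and 18.5 and 23.1 after estradiol there. All 4 genes were lower on every VND7XVE array than on any SND1XVE array. PDF1.2, like UGT84B1, was above the filter level on all 4 SND1XVE arrays and on 0 VND7XVE arrays, and so entered the tests through SND1XVE. For WES1 the closest were AT1G67280, AT5G48540, MAP1C and AT4G02400, at 0.046 to 0.0697, but 1113 genes lay within 0.2 of its level profile. Each of these 4 genes had, like WES1, its lowest signal on SND1XVE estradiol replicate 1. The arrays share their processing and their scaling, and the genes were picked as the closest, so that these likenesses are a description.

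**Figure D4:**
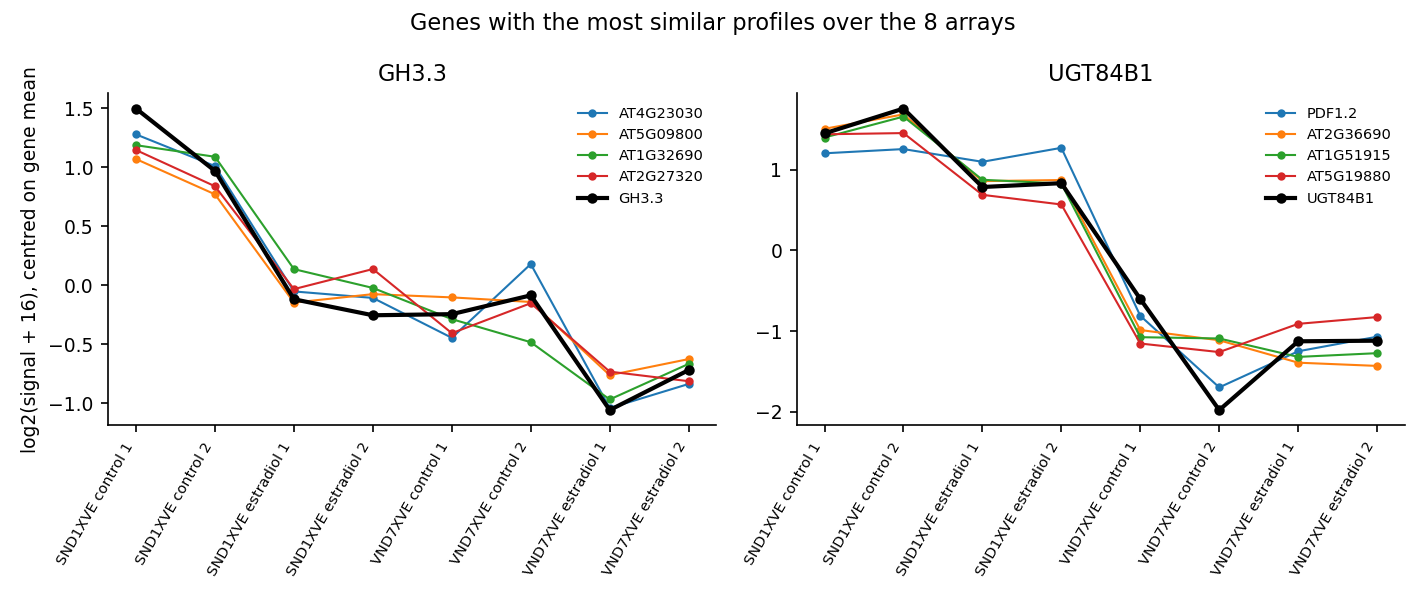
Log2(signal + 16) of GH3.3 (left) and UGT84B1 (right), each in black and centred on its own mean, with the 4 tested genes of the most similar profile; points are the 8 arrays and lines only join the points of a gene. The GH3.3 set steps down from SND1XVE controls to VND7XVE estradiol arrays, and the UGT84B1 set divides the lines.

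Several measures moved with these results. Median signals of the arrays were 98.2 to 101.4 units in controls and 107.5 to 109.3 with estradiol, and centring the arrays on their medians shifted the median of all probe sets to -0.083 in SND1XVE and -0.146 in VND7XVE. The GH3.3 estimates were then -1.52 in SND1XVE and -0.84 in VND7XVE (limma, adjusted p = 1.71e-06 and 0.000703). Centring lowers every estradiol estimate of a line by the same amount, so these values are no separate support for the fall. RNA integrity was read from actin as the signal at its 3' end over that at its 5' end. In SND1XVE this ratio was 2.803 and 2.8659 in the controls and higher with estradiol, at 3.3008 and 3.2062. In VND7XVE it was 3.7214 and 4.1568 in the controls and 4.6409 and 3.9771 with estradiol, where the groups overlapped. All VND7XVE ratios lay above all SND1XVE ratios. For GAPDH the same measure was 0.9395 to 1.08 on SND1XVE arrays and 0.946 to 1.015 on VND7XVE arrays. Of the 2 measured leaf mesophyll markers, LHCB4.1 was higher in VND7XVE controls by 1.04 ± 0.10 (adjusted p = 1.04e-06), and RCA by 0.24 (adjusted p = 0.0952). Their lowest signals were 2191.6 for RCA and 2559.4 for LHCB4.1, and neither was called for estradiol. The guard cell marker FMA stood at 49.1 to 118.3 units with no call, and epidermis and phloem markers had no named probe set. The part of these differences in the levels of GH3.3 and UGT84B1 between the lines, or in the fall of GH3.3 with estradiol, was not tested. In RNA from many cells, fewer cells that express a gene and less RNA per cell cannot be told apart. Line and culture cannot be told apart either, and no cells without a construct received estradiol, so the hormone alone and the factors it turns on cannot be told apart.

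**Figure D5:**
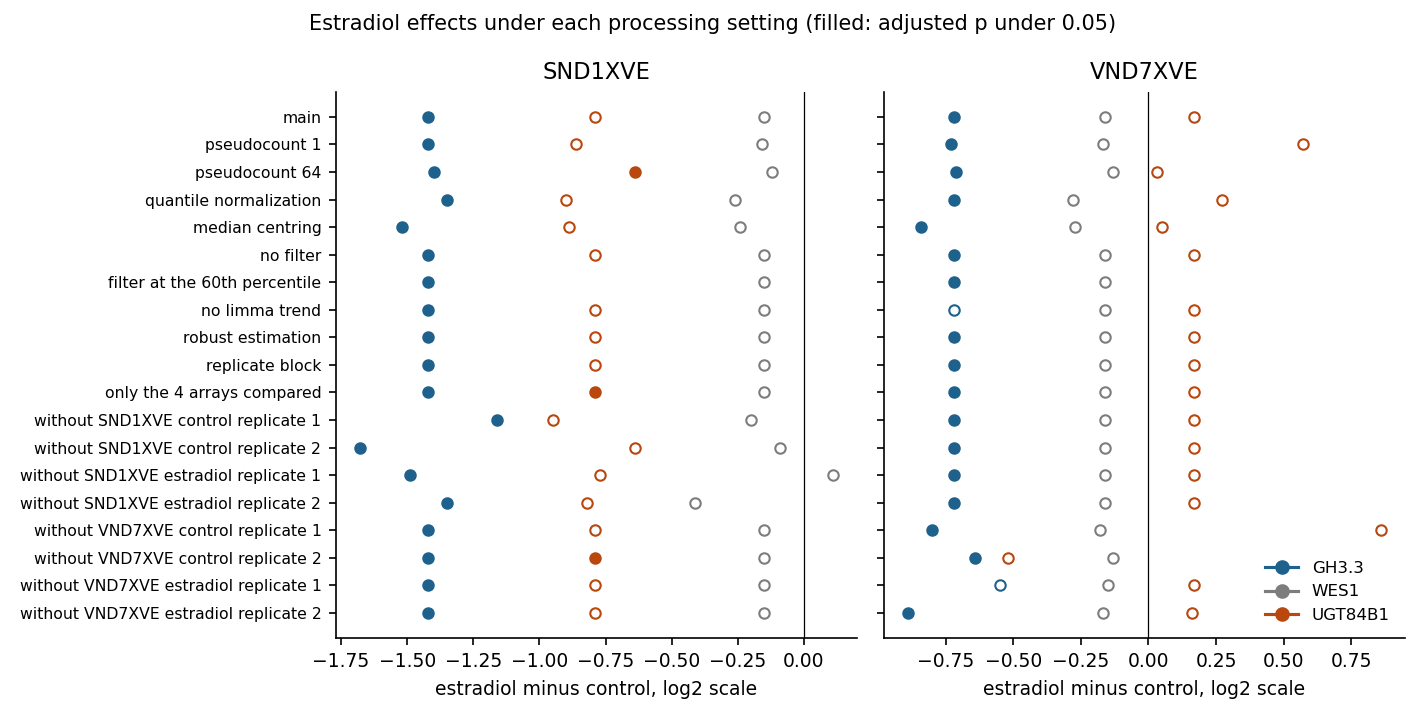
Estradiol effects on the log2 scale of GH3.3 (blue), WES1 (grey) and UGT84B1 (orange) under each processing setting, in SND1XVE (left) and VND7XVE (right); filled points have an adjusted p under 0.05. GH3.3 stays between -1.68 and -1.16 in SND1XVE and between -0.89 and -0.55 in VND7XVE, and UGT84B1 in VND7XVE changes sign when 1 control array is left out.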

How the data were processed

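Total RNA was labelled with biotin by a one-cycle kit, as the labels' protocols state. Each deposited value is the linear intensity of a probe set on an array, for which the submitters' processing notes name GCOS. For its version and settings the sources used here give nothing. The 2% trimmed mean of every array was 500.0 or 500.1, so that the arrays had been scaled, and they were used as deposited. Groups and replicate numbers came from the sample titles. Nothing in the labels says that replicates are separate cultures, and the p-values therefore cover array spread that may be only technical, and the number of arrays limits the precision.

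Probe sets were named from the platform annotation, with symbols and locus codes updated through RefSeq genes; 503 name several genes and 8730 are not listed there. Tests used log2(signal + 16), a scale that makes changes of low signals look smaller. Of 22746 probe sets, 14768 passed the filter and 8100 of these name 1 gene. The 4 group means were estimated by limma 3.58.1 under R 4.3.3 (lmFit, eBayes with an intensity trend, 4 residual degrees of freedom, two-sided), with Benjamini-Hochberg adjustment over all tested probe sets at a threshold of 0.05. The procedure was tested on simulated data with independent normal errors of the fitted spreads, which meet the assumptions of limma. That test does not cover replicates that may be only technical, or the behaviour of signals near the floor. Named genes were the members, all measured genes of the GH3 and glucosyltransferase lists, up to 6 of each other list, tested genes between GH3.3 and UGT84B1, and the 4 genes nearest in profile to each member. The members and lists were chosen with earlier results of these data known. Alternatives were pseudocounts of 1 and 64, quantile normalization, median centring, no filter, a stricter one (60th percentile), limma with robust estimation or without its trend, a replicate block, only the 4 arrays compared, and leaving out each array. Tables and figures used Python 3.11.15, pandas 2.3.3 and matplotlib 3.10.9. Protein and promoter sequences, and with them a planned search for promoter motifs, were not used here.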

Additional observations from a re-analysis of the deposited data

Results flagged for a closer look

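UGT76B1, a glucosyltransferase gene of salicylate and related immune signals, was also called between the controls. It was higher in VND7XVE by 0.67 on the log2 scale (limma, adjusted p under 0.05, but 0.056 without the trend), where 13.7% of all probe sets were called higher. This control difference was 0.40 without SND1XVE control replicate 2 and 0.52 without VND7XVE control replicate 2, and either omission lost the call. Its estradiol effect differed between the lines by the test of the difference itself, VND7XVE minus SND1XVE, at -1.20 ± 0.26 (limma, adjusted p = 0.0141, 3.06% of all probe sets called). Signals were 233.8 and 156.1 in SND1XVE controls against 385.0 and 375.8 with estradiol, and 280.9 and 350.7 in VND7XVE controls against 271.1 and 245.1 with estradiol. The call was lost without the filter (adjusted p = 0.0773), without the limma trend (0.126), without SND1XVE control replicate 2 (0.0505) or estradiol replicate 1 (0.0592), and without VND7XVE control replicate 2 (0.0879), estradiol replicate 1 (0.0537) or estradiol replicate 2 (0.0844).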

How the results depend on the processing

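GH3.3 kept its fall and its call in SND1XVE, and its lower level in VND7XVE controls and estradiol arrays, under all 18 settings (-1.68 to -1.16, -1.66 to -1.13 and -0.87 to -0.53). In VND7XVE its fall kept its sign under all 18 (-0.89 to -0.55) and its call under 16, and was -0.72 without the limma trend (adjusted p = 0.0815). The difference between its estradiol effects ranged from 0.43 to 0.96 when single arrays were left out. UGT84B1 kept its call between the lines under all 17 settings in which it was tested (-3.93 to -1.84 in controls, -2.49 to -1.17 with estradiol); the filter at the 60th percentile leaves it out. Its SND1XVE estimate ranged from -0.95 to -0.64 with arrays left out. It passed at -0.64 with a pseudocount of 64 (limma, adjusted p = 0.0326). At -0.79 it also passed with the 4 arrays alone (limma, adjusted p = 0.0183) and without VND7XVE control replicate 2. WES1 was called under none of its settings, of which there were 18 for each comparison except the difference, with 17 (lowest adjusted p = 0.223).

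Without the trend, probe sets called numbered 1584 in SND1XVE, 1326 in VND7XVE and 226 for the difference, which stood at 291 without the filter. With single arrays left out they ranged from 1611 to 2289 in SND1XVE, 1231 to 2256 in VND7XVE, 232 to 446 for the difference, 2571 to 4100 for controls and 2998 to 4796 for estradiol arrays. Median centring gave 1089 higher and 1665 lower calls in SND1XVE in place of 1384 and 1043, and 1021 and 1938 in VND7XVE in place of 1204 and 940. Genes called among the listed auxin genes and UGT84B1 relatives numbered 1 in SND1XVE without the filter, without the trend and with the replicate block, and 1 in VND7XVE without the trend, and ranged from 1 to 3 in each line with arrays left out. The replicate numbers share only a number: deviations of equal numbers correlated at -0.034 to 0.015 across probe sets. With the replicate block GH3.3 stood at -1.42 and -0.72 (adjusted p = 6.46e-06 and 0.00353), and it changed no call of the 3 genes. The cause of these changes was not tested.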
